A study of Oryza sativa with 10 samples.

Results

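Chromatin accessibility was mapped by ATAC-seq in rice seedlings, and the sites described here are the 5177 accessible chromatin regions that were called in every peak list with their summit in nearly the same place. Peaks of all 10 lists that overlapped by 1 bp or more were merged into 33382 sites. A steady constitutive site had exactly 1 peak in each of the 10 lists, a merged width under 800 bp, and less than 100 bp between the lowest and the highest of its 10 summits. The 5177 sites were 15.5% of all sites (95% Wilson interval 15.1% to 15.9%), and every interval of a share in this report covers counting error only. The sites were thus chosen by presence in all lists, by width and by summit position, so that none of these is a finding. In ATAC-seq the Tn5 transposase cuts DNA that is not wrapped on nucleosomes, and the summit is the base of a peak with the most sequence tags over it. Accessible regions of plant genomes usually mark promoters and other regulatory DNA, where transcription factors displace nucleosomes. A region that is open in the dark and in the light, with or without a hormone, is called constitutive.

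The plants were seedlings of the indica cultivar YD6, germinated for 3 d in the dark at 28 °C. The 5 groups of 2 peak lists were seedlings sampled in the dark (0 h), seedlings after 8 h and after 24 h of light, and seedlings that had been in light and were sprayed with 100 µM abscisic acid (ABA) or 100 µM indole-3-acetic acid (IAA, an auxin) in 1% DMSO 30 min before the 24 h sampling. Light starts photomorphogenesis, in which a dark-grown seedling greens and builds chloroplasts; auxin drives growth, and ABA is the hormone of drought and dormancy. The spray of DMSO alone was not analysed here, so each hormone and the spray that carried it cannot be told apart. Whole seedlings were used, so that a change in chromatin and a change in the mix of cell types cannot be told apart either, and the tissue label was not checked because no marker gene could be placed on these coordinates.

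The lists differed in length and in background. The shortest was an ABA list of 12659 peaks and the longest a dark list of 25302 peaks, and the lowest background of a list, called its floor here, lay between 3.10 tags in a dark list and 5.57 tags in an ABA list. The floor rises with the number of tags in a library, but the peak lists give no total, and the absolute depth was not examined here. The study describes the lists of a group as biological replicates. At the steady sites they agreed more closely than separate samplings of tags would, with a chi-square per site of 0.0110 to 0.0868, against 0.623 to 1.01 for the 40 pairs of lists from different groups. Their summits fell on the same base at 43.3% to 84.4% of the sites within a group and at 4.33% to 5.72% across groups. Both lists of a group were therefore averaged and taken as 1 sample, and no group difference in this report has a replicate check, an SD or a p-value.

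The criteria were applied in turn, and the number of sites left after each is given. A peak in all 10 lists needs a peak in the shortest list, an ABA list of 12659 peaks, so list length limits this count. Of the 33382 sites, 9508 (28.5%) had a peak in all 10 lists. Of those, 961 had more than 1 peak in some list, and 8547 had exactly 1 peak in each. A width of 800 bp or more removed 186, which left 8361 narrow sites with a single peak in each list. The summits stayed within 100 bp at 5177 of them (61.9%, interval 60.9% to 63.0%) and moved by 100 bp or more at the other 3184, which are called moving sites and serve as the comparison. Just inside the limit on summits, 374 steady sites had a range of 90 to under 100 bp and a median of their mean heights of 29.5 tags. Just outside it, 322 moving sites had a range of 100 to under 110 bp and a median of 29.6 tags. The widest steady site, on chromosome 8 from 5808160 to 5808955, measured 796 bp, and the narrowest site left out for width alone, on chromosome 10 from 11040498 to 11041297, measured 800 bp. All coordinates are of the MSU7.0 rice genome and are counted from 1.

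Width and summit range belong to the rule, and their values within its limits are given as a description. The merged width of the steady sites had a median of 321 bp and ran from 112 to 796 bp, while moving sites had a median of 422 bp. The summit range had a median of 51 bp. It was under 50 bp at 2526 sites (48.8%), at most 20 bp at 633, at most 10 bp at 249, and 0 at 19 sites, where all 10 lists placed the summit on one base.

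Peak edges were not part of the rule, although they lie around the summit and are not independent of it. The start of the peak ranged over a median of 65 bp across the 10 lists and the end over a median of 63 bp. At moving sites the medians were 88 and 90 bp. Both edges ranged over less than 50 bp at 828 steady sites (16.0%). The 10 peaks shared a common core at 5176 of the 5177 sites, with a median core of 154 bp, and all 10 summits lay inside that core at 4678 (90.4%). Moving sites had a longer median core, 203 bp, but all summits lay inside it at 1740 of 3184 (54.6%). At 2379 steady sites (46.0%) the summit range was smaller than the range of either edge, and at 826 it was larger than both.

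Peaks at the steady sites were narrowest under ABA and widest under IAA and in the dark. Averaged over the 2 lists, the median peak at the steady sites measured 249 bp in the dark, 233 bp at 8 h, 230.5 bp at 24 h, 195.5 bp under ABA and 261 bp under IAA. The ABA peak was the narrowest of the 5 at 50.9% of the sites. The widest peak was in IAA at 33.7% and in the dark at 31.0%. Moving sites had the same narrowest and widest groups. Their median peak measured 265 and 256 bp in the ABA lists, 312 to 324 bp in the light lists, 334 and 341.5 bp in the dark lists, and 341 and 346 bp in the IAA lists. The floor was highest in the ABA lists, and its part in the narrower peaks was not tested. Measured from the median summit, the median start was 114 bp upstream in the first dark list and 89 bp upstream in the second ABA list, where upstream means the lower coordinate. The matching ends lay 118 and 94 bp on the other side, so that the peaks were close to symmetric around the summit in each list.

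**Figure D1:**
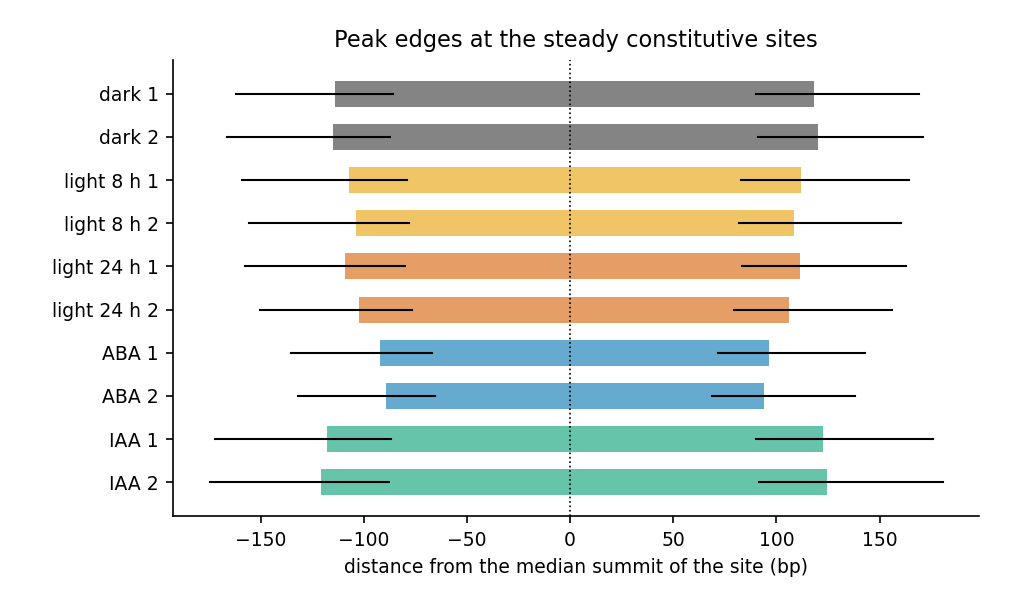
Each bar spans the median start to the median end of the peak at the 5177 steady sites in 1 list, in bp from the median summit of the site, and black lines run from the 25th to the 75th percentile of each edge. The ABA bars are the shortest and the IAA bars the longest, and all 10 are nearly symmetric around 0.

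Since the summits chose the sites, their steadiness was read in lists that had no part in the choice. For each group in turn, the same rule was applied to the 8 lists of the other 4 groups, and the summit of the held-out group was measured from the median of those 8. With the dark held out, 5762 sites were steady by the other lists, and a dark summit lay within 50 bp at 88.9% of them. The share was 85.4% of 6030 sites for 8 h, 86.9% of 5907 for 24 h, and 88.0% of 5860 for IAA. For ABA it was 62.1% of 7953 sites. Each is the mean of the 2 lists, and no list's interval was wider than 2.14 percentage points.

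ABA stood apart by missing peaks more than by shifted summits. A held-out peak was present at 74.6% of the sites for ABA and at 95.1% to 98.9% for the other groups. The ABA lists held 13278 and 12659 peaks, the other lists 18111 to 25302, and the ABA floors were the highest. A shorter list has fewer peaks to find. The parts of list length and floor in the missing peaks, and in the site count without ABA given below, were not tested. Among the peaks that were present, the summit lay within 50 bp at 83.3% for ABA and at 89.1% to 90.0% for the other groups. The median distance was 17.5 bp for ABA and 13.75 to 14.25 bp for the other 4. Sites that met the other criteria but moved by 100 bp or more in the remaining 8 lists had a held-out summit within 50 bp at 55.2% of ABA peaks and at 61.2% to 63.2% of the peaks in the other groups, and a median distance of 33.75 to 42.75 bp. The intervals of steady and moving sites did not overlap for any list. Steady sites were also narrower and taller than moving ones, and the part of width and height in this difference was not tested. If both ABA lists were left out of the rule, the number of steady sites was 7953 in place of 5177, whereas without both lists of another group it was between 5762 and 6030.

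**Figure D2:**
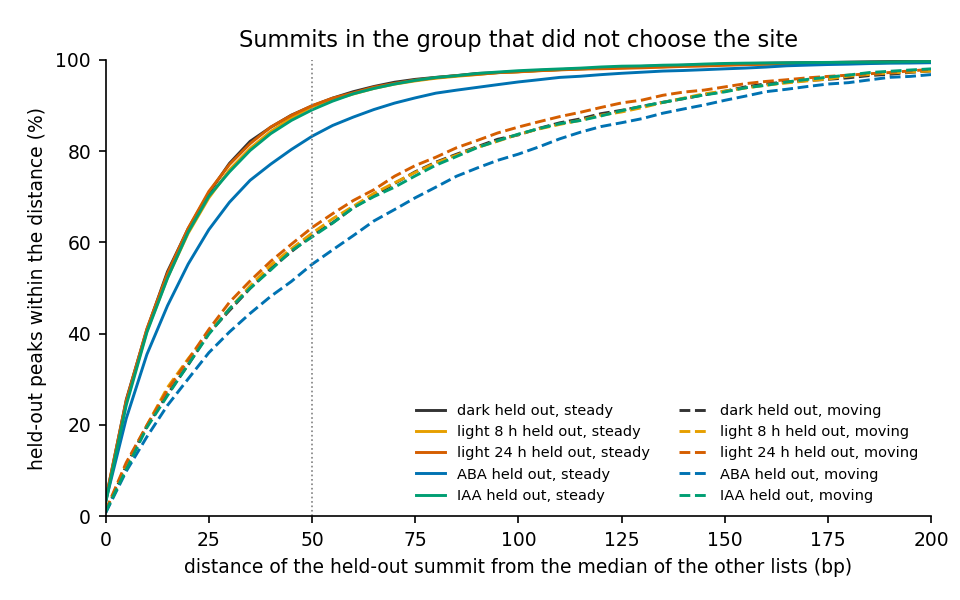
The curves give the percentage of held-out peaks whose summit lay within a distance, in bp, of the median summit of the 8 lists of the other groups, for sites that were steady (solid) or moving (dashed) in those lists. At 50 bp, marked by the dotted line, the solid curves lie between 83.3% and 90.0% and the dashed ones between 55.2% and 63.2%, with ABA lowest in both sets.

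Between groups, summits at the steady sites lay a median of 14.5 to 17.5 bp apart in the 10 pairs of groups. The mean signed distance of a group from the median of the others was between -0.46 and 0.36 bp in genome coordinates. The rule itself holds these distances small, and opposite shifts at different sites cancel in the mean. ABA was the farthest of the 5 groups at 28.1% of the sites, and the other groups at 18.4% to 20.2%. At moving sites the pairs of groups lay a median of 46 to 64 bp apart.

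Steadiness was more frequent at tall sites. The height of a site is the number of tags over its summit, averaged over the groups. The 8361 single-peak sites were divided by height into 5 bins of nearly equal size. In the lowest bin, from 17.3 to 25.6 tags, 46.5% were steady. The shares in the next 3 bins were 57.8%, 62.8% and 67.7%, and 75.1% were steady in the highest bin, from 39.6 to 159.5 tags. By width, 91.1% of sites of 112 to 262 bp were steady and 39.2% of sites of 491 to 799 bp. Summits cannot lie farther apart than the site is wide, so this split by width is in part set by the rule. Width and height themselves differed together, with a median width of 312 bp in the lowest bin of height and 424 bp in the highest, and their separate parts were not tested.

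Heights at the steady sites were much alike in the 5 groups. The median was 32 tags in the dark, 33 at 8 h of light, 32 at 24 h, 29.5 under ABA and 35.5 under IAA. In each list the steady sites ranked high among all its peaks: their median rank by q-value was between the 63.1 and 82.1 percentile, and they made up 20.5% of a dark list and 40.9% of an ABA list. A site had to be called in every list, also in the short ABA lists, so a high rank is in part set by the rule. The same sites are in each list, so the 2 shares differ only with its length. For comparisons between groups, heights were divided by the median ratio of the group to the geometric mean of the groups over sites with 1 peak in each list. The factors were 0.97 for the dark, 1.02 for 8 h, 1.01 for 24 h, 0.94 for ABA and 1.08 for IAA. After this scaling, the highest and lowest group differed by less than 1.5-fold at 3548 sites (68.5%) and by 2-fold or more at 93 (1.80%). The median spread was 0.48 on the log2 scale. Moving sites had a median of 0.47.

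From 0 to 8 h of light, 249 steady sites (4.81%) were more than 1.5-fold higher and 273 (5.27%) more than 1.5-fold lower. Among all 14966 sites with a single peak in each of the 4 lists compared, the shares were 6.75% higher and 3.29% lower. The steady sites were divided nearly evenly, while all sites leaned to the higher side. The scaling centers on the 8547 sites with 1 peak in each list, and 5177 of these were steady. The near-even split is thus in part set by the scaling. Here and in the comparisons that follow, the sites with the largest differences were sought among those of at least the median height, 32.3 tags. The largest upward difference lay on chromosome 2, 19312701 to 19313318. It had 23 and 24 tags in the dark lists, 47 and 52 at 8 h of light, 41 and 40 at 24 h, 42 and 41 under ABA, and 40 and 37 under IAA. Both dark lists were below all others, and the scaled height at 8 h was 2.01-fold that of the dark (exact 95% counting interval 1.20 to 3.39). A site on chromosome 1, 32082407 to 32082793, held 44 and 46 tags at 8 h against 22 and 21 in the dark, a 2.00-fold difference (1.15 to 3.42). The largest downward difference lay on chromosome 5, 13006118 to 13006391, with 41 and 46 tags in the dark, 19 and 21 at 8 h of light, 31 and 33 at 24 h, 30 and 30 under ABA, and 47 and 47 under IAA. Here 8 h was the lowest group and was 2.28-fold lower than the dark (1.33 to 4.12). On chromosome 6, 8964475 to 8964900, the dark lists had 40 and 40 tags and the 8 h lists 19 and 20, 2.15-fold lower (1.19 to 3.78), and 24 h was back at 34 and 37.

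From 8 to 24 h the fewest steady sites differed among the light comparisons. There were 103 (1.99%) more than 1.5-fold higher and 103 (1.99%) lower, against 1.33% higher and 2.7% lower of all 13667 sites compared. No steady site passed 2-fold, and 3 of all sites compared did. On chromosome 11, 26428046 to 26428390, the counts were 45 and 46 in the dark, 22 and 23 at 8 h of light, 44 and 45 at 24 h, 36 and 36 under ABA, and 41 and 44 under IAA. This site was low at 8 h only, and 24 h was 1.98-fold higher than 8 h (1.16 to 3.40). On chromosome 1, 16300185 to 16300445, 8 h had 22 and 24 tags and 24 h had 41 and 46, a 1.90-fold difference (1.13 to 3.33). Sites that were lower at 24 h stood on chromosome 12, 8856824 to 8857051, from 42 and 42 tags to 23 and 23 (1.82-fold lower, 1.07 to 3.17), and on chromosome 4, 7919899 to 7920143, from 46 and 48 tags to 27 and 25 (1.80-fold lower, 1.09 to 3.03).

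Over the whole of 0 to 24 h, 116 steady sites (2.24%) were more than 1.5-fold higher and 187 (3.61%) lower, against 3.14% higher and 2.72% lower of 14349 sites. The largest upward difference lay on chromosome 1, 33555794 to 33556004, a peak region of 211 bp whose 10 summits fell within 17 bp. It had 20 and 19 tags in the dark, 38 and 39 at 8 h of light, 55 and 54 at 24 h, 40 and 37 under ABA, and 57 and 58 under IAA. The dark lists were lowest, 8 h and ABA lay between, and 24 h and IAA were highest, with 24 h 2.68-fold above the dark (1.56 to 4.64). The same order stood on chromosome 2, 14269592 to 14269836, with 17 and 18 tags in the dark, 36 and 36 at 8 h of light, 48 and 45 at 24 h, 33 and 31 under ABA, and 47 and 46 under IAA, where 24 h was 2.55-fold above the dark (1.43 to 4.58). The largest downward differences were on chromosome 9, 3730844 to 3731222, from 51 and 57 tags in the dark to 24 and 27 at 24 h (2.21-fold lower, 1.33 to 3.60), and on chromosome 4, 703577 to 703769, from 48 and 46 to 24 and 23 (2.09-fold lower, 1.22 to 3.49). The 8 h lists, with 29 and 30 tags at the first of these sites and 31 and 33 at the second, stood between dark and 24 h.

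With ABA, 147 steady sites (2.84%) were more than 1.5-fold higher than at 24 h of light and 137 (2.65%) lower, against 3.48% higher and 2.29% lower of 10102 sites. The largest upward difference was on chromosome 5, 17101328 to 17101575, with 43 and 44 tags in the dark, 25 and 27 at 8 h of light, 25 and 27 at 24 h, 50 and 50 under ABA, and 47 and 49 under IAA. Both light groups were low there, and ABA was 2.07-fold above 24 h (1.26 to 3.46), at a height like that of IAA and the dark. On chromosome 11, 12010554 to 12010793, 24 h had 23 and 23 tags and ABA 42 and 42, a 1.96-fold difference (1.15 to 3.42), with 38 and 42 in the dark. The largest downward difference was on chromosome 6, 3373887 to 3374187, where ABA had 22 and 22 tags, the dark 38 and 39, 8 h 54 and 56, 24 h 53 and 48, and IAA 54 and 55. ABA was the lowest group and was 2.14-fold below 24 h (1.28 to 3.73). It was the lowest also on chromosome 6, 2023015 to 2023484, with 25 and 24 tags against 53 and 51 at 24 h (1.97-fold lower, 1.18 to 3.25).

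With IAA, 102 steady sites (1.97%) were more than 1.5-fold higher than at 24 h and 77 (1.49%) lower, against 1.69% higher and 1.52% lower of 14227 sites. On chromosome 3, 19726506 to 19726929, IAA had 58 and 60 tags and 24 h 26 and 26, with 39 and 44 in the dark, 32 and 32 at 8 h, and 43 and 41 under ABA. IAA was the highest group and was 2.13-fold above 24 h (1.32 to 3.52). On chromosome 5, 13475544 to 13475972, the counts were 58 and 57 under IAA and 28 and 26 at 24 h, a 2.00-fold difference (1.26 to 3.31). The largest downward difference lay on chromosome 4, 9156215 to 9156643, with 70 and 72 tags in the dark, 84 and 84 at 8 h of light, 87 and 88 at 24 h, 89 and 88 under ABA, and 45 and 35 under IAA. Only IAA was low there, 2.33-fold below 24 h (1.60 to 3.50). On chromosome 3, 33540007 to 33540210, IAA had 44 and 45 tags and 24 h 73 and 74 (1.76-fold lower, 1.19 to 2.60).

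These named sites are the extremes of 5177 sites in 5 comparisons, and the intervals around their folds cover the counting of tags in 1 sample per group. Over all steady sites, the spread of the log2 differences was below what counting gives, as it was over all sites compared. Its SD was 0.35 for 8 h over dark, 0.28 for 24 h over 8 h, 0.31 for 24 h over dark, 0.30 for ABA and 0.28 for IAA over 24 h. The SD that Poisson counting alone gives at these heights was 0.36, 0.36, 0.36, 0.37 and 0.35. Over all sites compared, the SD was 0.35, 0.28, 0.31, 0.31 and 0.27. Their counting SD was 0.40, 0.38, 0.40, 0.38 and 0.38. The low spread was thus not particular to the steady sites. Why heights varied less than counting gives was not tested. The number of steady sites beyond 1.96 counting errors was 201 (3.88%), 55 (1.06%), 99 (1.91%), 97 (1.87%) and 120 (2.32%) in the same order. Of all sites compared, 2.90%, 0.78%, 1.30%, 1.88% and 1.17% were beyond it. Steady sites are taller, and a smaller fold passes at tall sites. A site had to be called in every list, so sites that fell too low in any group are not among the members. The rule thus limits the spread in part, and a spread within counting does not show that heights were unchanged. In all, 4093 sites (79.1%) passed 1.5-fold in none of the 5 comparisons. The comparisons share lists, such as the 24 h lists in 4 of them, so their counts are not independent.

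**Figure D3:**
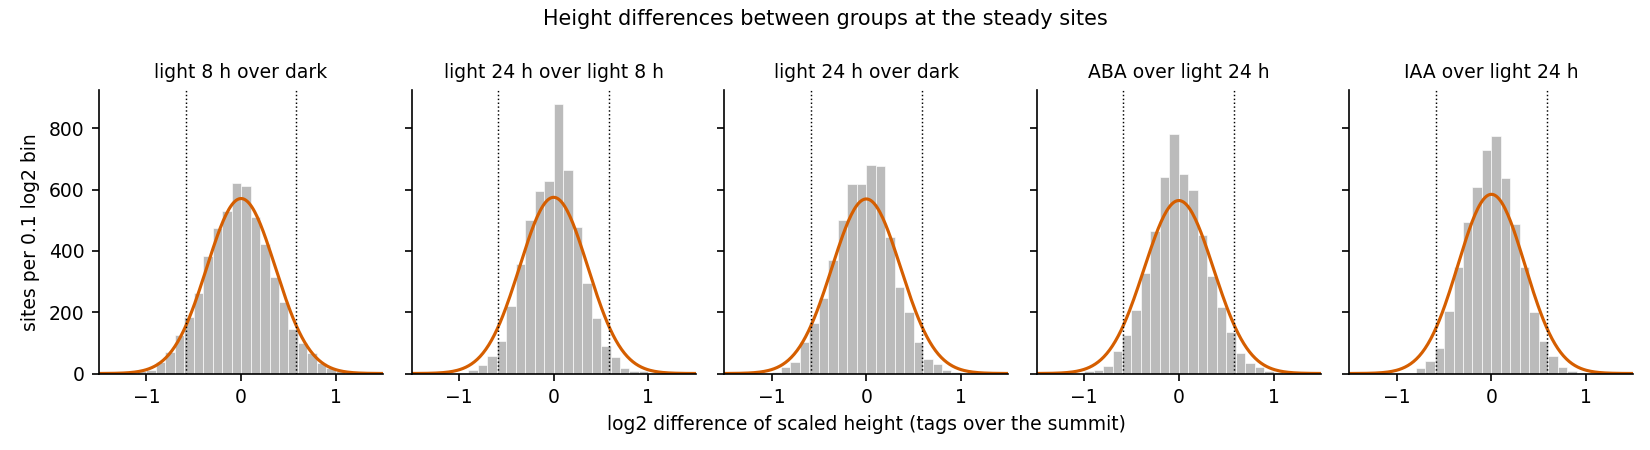
The histograms give the number of steady sites per bin of log2 difference in scaled height for the 5 comparisons. The orange curve is a normal curve with the SD expected from counting alone, 0.35 to 0.37, and the dotted lines mark 1.5-fold, and in no comparison are the bars wider than the curve.

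The direction of these counts depended on the scaling. If heights were divided by the floor of each list, in place of the median ratio, 8 h over dark gave 22 higher and 1315 lower sites, 24 h over dark 11 and 1303, ABA over 24 h 3 and 1835, IAA over 24 h 238 and 25, and 24 h over 8 h 84 and 125. The share of all sites past 1.5-fold under this scaling is not given here. Their median log2 difference was then -0.28, -0.34, -0.47, 0.12 and -0.05 in the same order, against -0.35, -0.37, -0.49, 0.12 and -0.02 at steady sites. The split between higher and lower also moved by over 10 percentage points when each group was divided by its median height (added after seeing the data). It was then 138 higher and 71 lower for 24 h over 8 h, 155 and 143 for 24 h over dark, and 62 and 111 for IAA over 24 h. Scaling by the floor moved the log2 difference of all sites by -0.33 for 8 h over dark, -0.36 for 24 h over dark, -0.48 for ABA, 0.11 for IAA and -0.02 for 24 h over 8 h. All directions given above are thus relative to the typical single-peak site, and a change common to all sites is not measured.

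The 5 steady sites with the largest spread over groups among those of at least the median height include 3 already described, on chromosomes 1, 2 and 4. The other 2 were lowest in the dark, as were those on chromosomes 1 and 2, while the one on chromosome 4 was lowest under IAA. On chromosome 8, 9253643 to 9253875, the counts were 22 and 23 in the dark, 38 and 40 at 8 h of light, 55 and 56 at 24 h, 49 and 46 under ABA, and 45 and 39 under IAA. On chromosome 3, 18577455 to 18577908, they were 18 and 20, 31 and 33, 47 and 43, 39 and 38, and 50 and 49 in the same order. The highest and lowest scaled heights differed 2.37-fold at the former and 2.34-fold at the latter, and in both the dark lists lay below the other 8.

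At the other end, 5 steady sites hardly differed. The smallest spread was 1.02-fold, on chromosome 1, 17348967 to 17349557, with 57 and 59 tags in the dark, 61 and 60 at 8 h of light, 62 and 59 at 24 h, 55 and 56 under ABA, and 61 and 66 under IAA. Spreads of 1.04-fold, 1.05-fold, 1.05-fold and 1.07-fold followed. The last of these, on chromosome 4, 9125570 to 9125725, was 156 bp wide, its 10 summits lay within 4 bp, and its counts were 62 and 63, 65 and 63, 66 and 67, 60 and 58, and 64 and 69. Such small spreads are below the counting error of any single site and are described as they stand.

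Besides this even majority, a small set of steady sites was much taller and had a smaller median summit range. The peak caller sets for each peak a local background, the number of tags expected there. At summits that coincided in lists of different groups this background, in units of the floor, was equal within 1% at all 10591 pairs, of which 6741 were above the floor and the others equal by construction. At these pairs the background was thus the same in lists of different groups. Its source was not described. The background was at the floor at 2229 steady sites (43.1%), above it up to 2 floors at 2534 (48.9%), above 2 and up to 4 floors at 325 (6.28%), and above 4 floors at 89 (1.72%). Among moving sites the last 2 shares were 2.70% and 0.57%. Of the single-peak narrow sites with a background above 2 floors, 79.9% were steady (interval 76.3% to 83.1%), against 60.8% (59.2% to 62.3%) at the floor. The limit matters for height: 131 steady sites had a background equal to 2 floors, and with these counted above it (a choice made after seeing the data) the median height above 2 floors was 56.6 tags in place of 78.2, the median summit range 28 bp in place of 20.5 bp, and the steady share 78.3%.

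Height and summit range changed together with the background. The median height was 30.1 tags at the floor, 32.9 above it to 2 floors, 58 from 2 to 4 floors, and 129.8 above 4 floors. The median summit range in the same classes was 53, 52, 24 and 14 bp. A summit range of at most 10 bp was found at 35 of the 89 sites in the highest class (39.3%) and at 64 of 2229 at the floor (2.87%). All of the 50 tallest steady sites, each of at least 132.5 tags, had a background above 2 floors. The fold over background was not higher for it: its median was 5.94 at the floor and 5.64 above 4 floors. At like height the difference in steadiness was smaller. Between 40 and 60 tags, 80.6% of 98 sites with a background above 2 floors were steady (71.7% to 87.2%), and 70.1% of 1162 sites below it (67.4% to 72.6%). Why the background was high at these places was not tested.

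**Figure D4:**
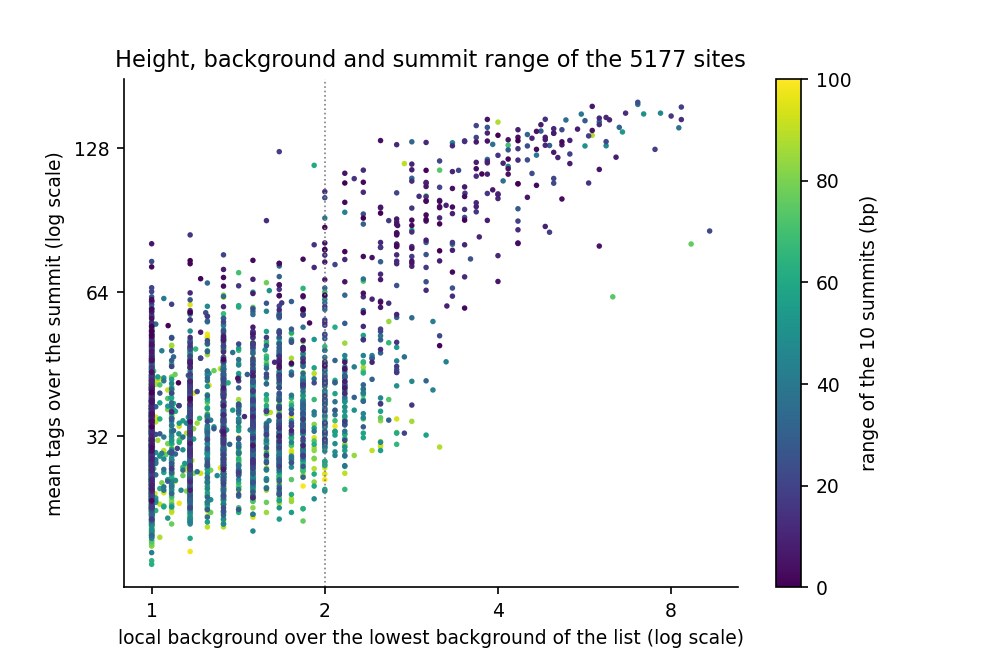
Each point is 1 of the 5177 steady sites, with its local background in units of the floor on the horizontal log axis, its mean number of tags over the summit on the vertical log axis, and its summit range in bp as color. To the right of the dotted line at 2 floors taller sites have more background and small summit ranges (dark points) prevail, with a median range of 20.5 bp.

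The 5 tallest steady sites had nearly the same number of tags in all groups. The tallest lay on chromosome 10, from 2759013 to 2759498, and showed 161 and 158 tags in the dark, 159 and 160 at 8 h of light, 169 and 169 at 24 h, 156 and 156 under ABA, and 155 and 152 under IAA. The next lay on chromosome 12, from 21599988 to 21600424, and showed 152 and 153, 160 and 162, 168 and 170, 157 and 157, and 148 and 152 in that order. Their scaled heights spread 1.17-fold and 1.20-fold over the groups, with 24 h highest in unscaled counts at both. Also on chromosome 12, 13352430 to 13352684, the counts ran from 150 in an IAA list to 162 in both 24 h lists, and the 10 summits lay within 6 bp. On chromosome 4, 9193186 to 9193720, they ran from 151 to 163, and on chromosome 1, 18688196 to 18688737, from 142 to 160. The backgrounds of these 5 sites were between 5.83 and 8.33 floors. No peak of any kind had more than 168 to 180 tags in its list, although the floors of the lists differed from 3.10 to 5.57 tags, so the tallest sites stood close to the highest count in each list. What set that highest count was not tested.

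The 19 sites with all 10 summits on one base were of several kinds. Their heights ran from 33.5 to 136.1 tags with a median of 63.1, and the background was at the floor at 6, above it up to 2 floors at 5, and above 2 floors at 8. The tallest of them lay on chromosome 12, 20463767 to 20464419, with 129 and 131 tags in the dark, 138 and 140 at 8 h of light, 146 and 147 at 24 h, 143 and 143 under ABA, and 118 and 126 under IAA. On chromosome 11, 9473041 to 9473230, a site of 190 bp had 131 and 129, 133 and 132, 140 and 141, 138 and 138, and 120 and 124 tags in that order. In these unscaled counts 24 h was highest and IAA lowest at both. After scaling ABA was highest and IAA still lowest, with spreads of 1.34-fold and 1.30-fold. On chromosome 3, 13646860 to 13647474, the counts ran from 97 in an IAA list to 121 in an ABA list. The next 2 by height, on chromosome 12 from 13387242 to 13387517 and from 13379763 to 13380081, ran from 99 to 119 and from 88 to 100 tags. These 5 were taken as the tallest of the 19, and their background was 2.17 to 4.33 floors.

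**Figure D5:**
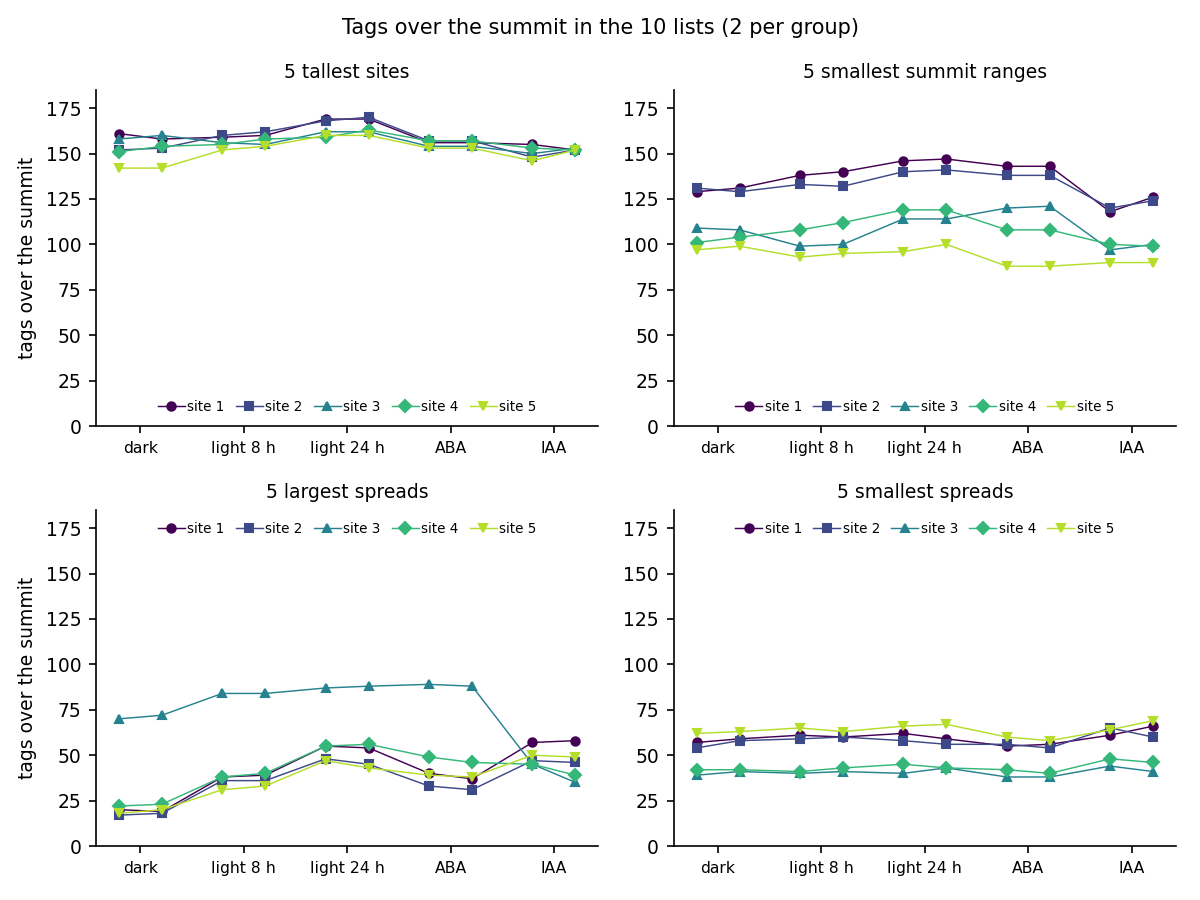
Each line follows 1 site through the 10 lists, 2 for each group, with tags over the summit (unscaled) on the vertical axis, for the 5 tallest sites, the 5 with the smallest summit range, and the 5 with the largest and the smallest spread over the groups. The tallest sites stay between 142 and 170 tags, 4 of the 5 sites with the largest spread are lowest in the dark, and the other, at 70 to 89 tags in 8 lists, has 45 and 35 in IAA.

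As a set, the tall sites with a high background were lower under IAA than at 24 h. The 89 sites with a background above 4 floors had a median height of 127 tags in the dark, 133 at 8 h of light, 141 at 24 h, 130 under ABA and 121 under IAA. The median log2 difference of IAA over 24 h, after scaling, was -0.29 at these sites, -0.25 at the 325 sites with 2 to 4 floors, and 0.03 at the 2229 sites at the floor. Of the 89, 24 (27.0%) differed by more than 1.96 counting errors and 18 of 2229 (0.81%) did at the floor, but the counting SD was 0.18 on the log2 scale at the former and 0.37 at the latter, so that a smaller fold passes at tall sites. None of the 89 passed 1.5-fold. For ABA over 24 h the medians were 0.00, -0.01 and -0.02 in the same order. At 24 h over 8 h they were 0.08, 0.11 and -0.01. The factor that scales all sites was highest for IAA, 1.08, and its part in the difference was not tested. The highest count of any peak was 168 and 171 tags in the IAA lists and 178 and 180 at 24 h, and its part was not tested either. Of the sites above 2 floors, 41 lay in one stretch of chromosome 12 described below, so the sites are not independent. The 5 sites of that stretch at the floor had log2 differences of IAA over 24 h of -0.15, -0.60, -0.66, -0.32 and 0.11. Lower heights under IAA were thus not confined to sites with a high background there. Without the sites above 2 floors, 4763 steady sites were left.

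Steady sites lay on all 12 chromosomes. They were between 13.0% of the sites of chromosome 4 (interval 11.8% to 14.3%) and 21.8% of the sites of chromosome 12 (20.0% to 23.8%), and 15.5% over all. Next to chromosome 12 came chromosome 8 with 17.9% and chromosome 11 with 17.8%. Without the sites above 2 floors, chromosome 12 had 18.2% and chromosome 8 had 17.1%. Of the 378 steady sites on chromosome 12, 76 (background above 2 floors) belonged to the tall set, more than on any other chromosome, where the number was between 18 and 50. Outside the 12 chromosomes, 7 steady sites lay on the pseudomolecule Sy and 3 on Un, which hold sequence not placed on a chromosome.

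One stretch of chromosome 12 held far more steady sites than any other. Of 379 windows of 1 Mb with a site, the window from 13 to 14 Mb held 71 steady sites among its 122 sites, the next window held 35, and the median was 13. Within it, 60 steady sites stood between 13342275 and 13444525, over 102251 bp. Neighboring sites there had summits a median of 826 bp apart, and 46 distances were under 2000 bp. Over the genome the median distance between neighboring steady sites was 37803.5 bp. The 60 sites had a median height of 96.05 tags, from 26.6 to 156.4, a median summit range of 8.5 bp, and a median background of 2.83 floors. A background above 2 floors was found at 41 of them and the floor at 5. Their summit range was at most 10 bp at 32. The 1 Mb window held 9 of the 19 sites of the genome with all 10 summits on one base.

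Median heights in this cluster ran from 85 tags in an IAA list to 105.5 in a 24 h list. The median over the 60 sites was 95.5 and 94.5 tags in the dark, 100.5 and 102 at 8 h, 105 and 105.5 at 24 h, 95 and 95 under ABA, and 85 and 90.5 under IAA. As at the sites above 4 floors, 24 h was highest and IAA lowest in these unscaled tags. After scaling, IAA was below 24 h at every site of the stretch but the last. The stretch held small sites too. One from 13343677 to 13343811, 135 bp wide, had a mean of 54.3 tags, a background at the floor, and a summit range of 0. Another from 13409790 to 13409907, 118 bp wide, had 33.5 tags, also at the floor and also with a range of 0. The last site of the stretch, from 13444254 to 13444525, stood 25271.5 bp from its neighbor and was ordinary, with 26.6 tags and a range of 90 bp. The other 307 steady sites of chromosome 12 had a median height of 32.6 tags and a median summit range of 45 bp. What is annotated in this stretch was not examined.

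The shares of sites with a close neighbor of any kind and of close neighbors within one class ran in opposite directions, lower and higher at steady than at moving sites. The nearest other site of any kind was less than 1000 bp away for 31.2% of steady sites (interval 30.0% to 32.5%), 36.7% of moving sites (35.0% to 38.3%) and 37.3% of sites missing from some list (36.7% to 37.9%). The median gap was 2355 bp for steady sites, 1742 bp for moving sites and 1756 bp for the last. Of 5163 distances between neighboring steady sites on a chromosome, 176 (3.41%) were under 1000 bp, 53 were under 500 bp and 52 were over 500000 bp. Of 3170 distances between neighboring moving sites, 48 (1.51%) were under 1000 bp and 2 under 500 bp. There were 5177 steady and 3184 moving sites, and a larger class has more close neighbors within it at equal clustering. The stretch of chromosome 12, with a median distance of 826 bp, is among the steady distances. The parts of class size and of this stretch were not tested.

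Across the steady sites, the order of heights was partly shared by all groups. Spearman's rho between the unscaled heights of 2 groups, across the 5177 sites, was 0.58 for 8 h and ABA, the lowest, and 0.79 for 24 h and IAA, the highest. For dark with 8 h it was 0.66, for dark with 24 h 0.74, and for 8 h with 24 h 0.77. Over the 4763 sites with a background of up to 2 floors these ranged from 0.50 to 0.75. The points are sites of the same libraries, are not independent replicates, and share mappability and local backgrounds, so the values are a description.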

How the data were processed

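The authors removed 100 bp from the 3′ end of paired-end reads, used Bowtie2 2.3.2 to align to MSU7.0 (a japonica genome, while the plants were indica), removed low-quality and duplicated reads with SAMtools 1.9, and called peaks with MACS2, whose version and settings are not given in the sources used here. No shift for the Tn5 cut and no control were described, which bears on summit positions and backgrounds.

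The deposited lists hold, for each of 200537 peaks, its position, the summit, the fold over background (a ratio of pileup to local background), the −log10 p-value and the −log10 q-value. The deposited score restates the q-value and was not used. Fold and p-value were solved together for the whole number of tags over the summit and the local background (largest error 0.000203 in −log10 p). The code was tested on simulated peaks and sites.

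Named sites were the 5 tallest, the 5 with the smallest summit range, the 5 with the largest and the 5 with the smallest spread, and the 2 strongest in each direction per comparison, the last 3 sets among the 2606 sites at or above the median height. Scripts used Python 3.11.15, numpy 2.4.6, pandas 2.3.3 and scipy 1.17.1. The members and lists were chosen with earlier results of these data known. Sites within 1% of the floor of their list were taken as at the floor. Intervals are 95% Wilson for shares and exact binomial for folds. The 2 lists of a group, described by the authors as biological replicates, differed by less than the sampling noise and were counted as 1 sample, so that there is no test. How they came to agree so closely was not tested. Alternatives are named in the closing section. Gene names, promoters, GC content, motifs and sequences were not analysed here, because the annotation at hand was of another build.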

Additional observations from a re-analysis of the deposited data

How the results depend on the processing

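The number of steady sites changed by under 1.5 times with a −log10 q-value of at least 5, with merging at 50 bp of overlap, with a summit range under 200 bp, with a width under 400 bp and with no width limit. It was 2526 with a summit range under 50 bp and 7953 without both ABA lists (added after seeing the data). Leaving out 1 list gave 5259 to 5387 sites, median ranges of 62 to 64 bp for starts and 61 to 63 bp for ends, and held-out shares of 88.5% to 89.4% in the dark, 85.3% to 85.5% at 8 h, 86.9% to 87.0% at 24 h, 61.3% to 63.0% under ABA and 87.7% to 88.2% under IAA. The other list of the group, which nearly repeats it, stayed in. Leaving out 1 list could therefore change little, and these ranges are no check by an independent sample.

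Within 20 bp in place of 50 bp, the held-out share of the dark lists was 62.3%, that of the light lists 59.0% (8 h) and 60.9% (24 h), that of the ABA lists 41.2% and that of the IAA lists 61.5%, and within 100 bp it was 96.4%, 92.7%, 94.1%, 71.0% and 96.5%. With a −log10 q-value of at least 5 it was 90.2% in the dark, 86.6% at 8 h and 57.4% under ABA. Past 2-fold, 11 sites were higher and 11 lower for 8 h over dark, 0 and 0 for 24 h over 8 h, 10 and 4 for 24 h over dark, 9 and 2 for ABA, and 1 and 1 for IAA. Of all sites compared, in both directions together, 63 of 14966, 3 of 13667, 28 of 14349, 37 of 10102 and 11 of 14227 passed 2-fold. With a summit range under 50 bp the counts past 1.5-fold were 104 and 135, 48 and 38, 62 and 79, 66 and 61, and 44 and 53 for IAA, on fewer sites, so that IAA over 24 h leaned to the lower side in place of the higher. Scaled by the floor they were 22 and 1315 for 8 h over dark, 11 and 1303 for 24 h over dark, 3 and 1835 for ABA, and 238 and 25 for IAA. With the fold over background as height they were 159 and 170 for 24 h over 8 h, 242 higher for ABA, and 166 and 125 for IAA. Scaled by the median height of each group (added after seeing the data), 62 were higher and 111 lower for IAA, again to the lower side. Apart from the smaller sets and stricter limits, the cause of these changes was not tested. Leaving out 1 list gave 253 to 273 higher and 264 to 293 lower sites for 8 h over dark, 101 to 114 and 97 to 118 for 24 h over 8 h, 117 to 152 and 183 to 210 for 24 h over dark, 150 to 167 and 132 to 142 for ABA, and 99 to 109 and 79 to 99 for IAA. The other list of the group was again kept, so these ranges have the same limit. Leaving out sites with a background above 2 floors (also added later) kept each count within 1.5 times. No paired analysis was possible because the results come from no test. The alternatives planned for gene starts, GC content, motifs and gene lists were not run. Tag counts near 30 limit a single fold to about the intervals given above.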
